A study of Homo sapiens with 14 samples.

Results

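The ID and MSX genes with their bone morphogenetic protein (BMP) pathway were followed in U2OS ER-E2F1 cells, a human osteosarcoma line that carries the transcription factor E2F1 joined to an oestrogen receptor domain. Members were 10 of the 11963 genes that the array names, listed by name: the ligand gene BMP4, the receptor gene BMPR2, the inhibitory SMAD genes SMAD6 and SMAD7, the inhibitor of DNA binding genes ID1, ID2, ID3 and ID4, and the homeobox genes MSX1 and MSX2. All probe sets that name 1 of these genes and no other were taken, which gave 19 of the 22277 probe sets on the array. A further probe set, 213931_at, names both ID2 and ID2B, had signals between 54.7 and 127, and was left out. The genes were chosen by family, with the responses of ID4 and MSX2 to 4-hydroxytamoxifen (OHT) and the MSX2 knockdown difference with OHT on these arrays known, so the response to OHT is given here as a description with no test.

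A BMP ligand such as BMP4 binds a pair of receptors, of which BMPR2 is a type II member, and these phosphorylate SMAD1, SMAD5 and SMAD9. The phosphorylated SMADs join SMAD4 in the nucleus and switch on a small set of early targets, among them the ID and MSX genes and SMAD6 and SMAD7, which in turn inhibit the signal. ID proteins hold a helix-loop-helix without a DNA-binding region and keep other helix-loop-helix factors off DNA, and MSX proteins are homeodomain repressors. In the bone lineage the pathway is best known for driving osteoblast formation.

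All cells had been infected with a lentivirus and were serum-starved for 24 hours before the treatment. The virus held either a scrambled hairpin (sh-scr) or 1 of 2 hairpins, shFOXO33 and shFOXO707, each aimed at both FOXO1 and FOXO3. The treated cells then received 20 nM OHT, which brings the ER-E2F1 protein into the nucleus, for 6 hours, and the others received medium without it. The groups were sh-scr without OHT (4 arrays), sh-scr with OHT (4 arrays), each hairpin without OHT (1 array) and each hairpin with OHT (2 arrays), 14 arrays in all. No cells lacking ER-E2F1 were treated with OHT among these arrays, so an effect of OHT itself and one of E2F1 cannot be told apart, and with bulk RNA fewer cells of a type and less RNA per cell cannot be told apart either. Nothing in the labels tells whether replicates came from cultures of their own, and the p-values cover only the spread between these arrays, which may be technical.

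Values are MAS5 signals, a linear intensity scaled so that the trimmed mean of every array is 500, and differences are log2(signal + 16), with the SE of the limma fit. Median signal was 137 to 143 on the arrays without OHT and 115 to 120.1 on those with OHT, and the median log2 difference over all 22215 non-control probe sets was -0.14 in both OHT comparisons, 0.04 for knockdown with OHT and 0.03 without. A probe set is called below low signal where its mean log2 over the 14 arrays lies under 6.57, a signal of 79.1, and 14 of the 19 member probe sets, covering all 10 genes, lay above that level. The knockdown was visible in its targets: FOXO1 fell by 1.29 ± 0.15 (adjusted p = 8.85e-05) and FOXO3 by 1.81 ± 0.29 (adjusted p = 0.00136) with OHT. FOXO3 kept more signal under shFOXO707 than under shFOXO33 (45.2% and 17.1% of the scrambled signal with OHT). FOXO3 without OHT missed the threshold (-1.13 ± 0.36, adjusted p = 0.122), while FOXO1 fell by 0.99 ± 0.18 (adjusted p = 0.00838). Of 7 osteoblast markers on the array, 5 lay above the low-signal level, RUNX2 and IBSP did not, and none of 7 blood cell markers did. Of 6 epithelial markers, 3 lay above it (EPCAM, KRT8 and KRT18).

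The 250 bases before the annotated gene start are shown for 4 genes that were past 2-fold higher with OHT, from RefSeq on GRCh38.p14. All 10 members matched an entry; BMP4 has several starts in the table, and the first listed was used, which lies inside the annotated gene. Capitals mark a match on either strand to the CCAAT box, to the TATA box letters TATAAA or to GTCTAGAC, a SMAD-binding palindrome. ID3 at chr1:23559502-23559751 (minus strand) has none of these, ID4 lies at chr6:19837120-19837369 (plus), MSX2 at chr5:174724332-174724581 (plus) and SMAD6 at chr15:66701986-66702235 (plus).
ID3: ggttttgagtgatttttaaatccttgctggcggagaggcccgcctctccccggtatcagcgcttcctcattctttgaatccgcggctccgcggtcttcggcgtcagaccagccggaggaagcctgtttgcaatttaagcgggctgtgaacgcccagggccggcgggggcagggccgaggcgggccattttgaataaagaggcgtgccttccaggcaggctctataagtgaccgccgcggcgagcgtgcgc
ID4: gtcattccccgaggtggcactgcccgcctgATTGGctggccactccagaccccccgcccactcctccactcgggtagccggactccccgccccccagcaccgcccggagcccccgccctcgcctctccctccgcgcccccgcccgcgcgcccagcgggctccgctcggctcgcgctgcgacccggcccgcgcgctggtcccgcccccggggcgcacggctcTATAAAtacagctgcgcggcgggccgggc
MSX2: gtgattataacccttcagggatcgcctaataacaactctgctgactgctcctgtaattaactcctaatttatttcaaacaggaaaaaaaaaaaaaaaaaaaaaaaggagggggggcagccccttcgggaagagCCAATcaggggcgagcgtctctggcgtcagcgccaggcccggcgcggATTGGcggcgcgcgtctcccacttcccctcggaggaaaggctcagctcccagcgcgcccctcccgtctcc
SMAD6: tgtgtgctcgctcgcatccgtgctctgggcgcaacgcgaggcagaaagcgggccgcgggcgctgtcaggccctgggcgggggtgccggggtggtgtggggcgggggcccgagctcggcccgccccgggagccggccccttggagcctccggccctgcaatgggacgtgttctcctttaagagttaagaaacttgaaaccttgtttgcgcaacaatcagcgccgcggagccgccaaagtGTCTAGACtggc

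GTCTAGAC occurs in the SMAD6 window, starting 12 bases before the gene, and in 0.182% of the 35116 windows of the table. The ID4 window has TATAAA starting 29 bases before the gene, as do 10.7% of all windows at any place, and ID1 holds 2 overlapping matches starting 33 and 31 bases before it. CCAAT, in 32% of windows, is found once in ID1 and ID4, 2 times in MSX1 and MSX2, and 3 times in ID2. GGCGCC, another SMAD-bound motif and in 16.4% of windows, is in those of BMP4 and BMPR2. None of the 10 windows holds TTTCGCGC, TTTCCCGC, TTTGGCGC or TTTGCCGC, forms of the E2F motif of which at least 1 is in 2.79% of windows, or the forkhead motif GTAAACA, in 2.98%. The windows were 62.0% GC for ID3, 78.8% for ID4, 55.6% for MSX2 and 68.0% for SMAD6, against a median of 58.0%. These matches describe the letters of the windows and are not measured sites.

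**Figure D1:**
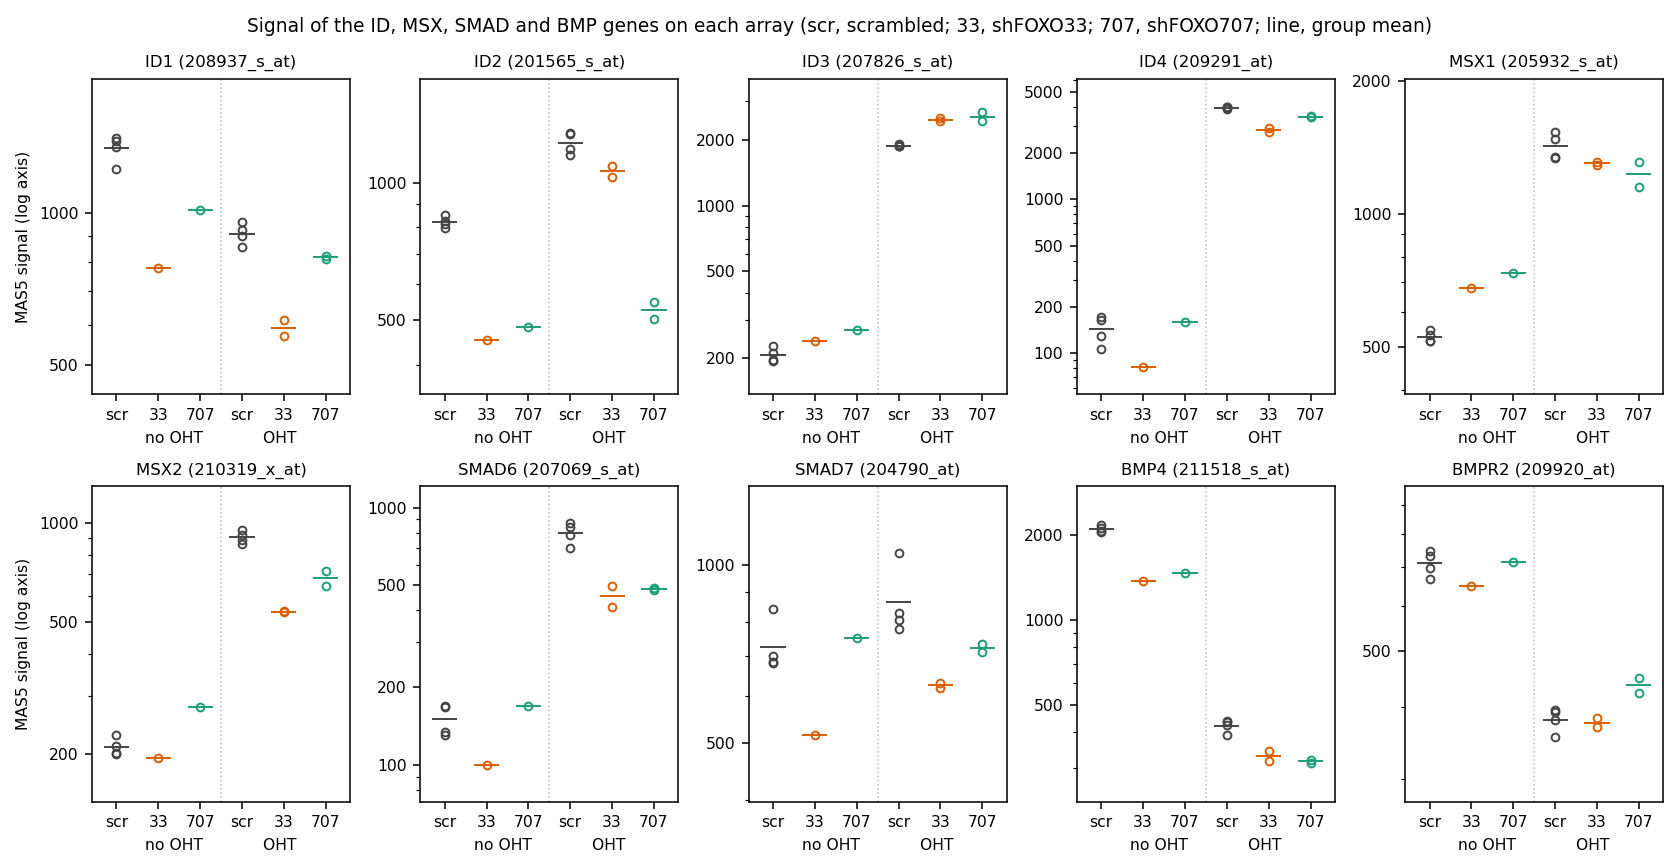
Signal (log axis) of the probe set with the highest mean of each gene, on every array: grey, scrambled; orange, shFOXO33; green, shFOXO707; circles are arrays and lines are group means. BMP4 lies at 312.5 to 437 on all 8 OHT arrays against 1372 to 2159.9 without OHT, and ID3, ID4, MSX1, MSX2 and SMAD6 are higher on every OHT array than on any array without it.

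With OHT the ligand gene BMP4 and the receptor gene BMPR2 read lower, and SMAD6, ID3, ID4 and the MSX genes read higher. BMPR2, ID1, ID2 and SMAD7 stayed within 2-fold. In scrambled cells 8 of the 19 probe sets, from 5 genes, were more than 2-fold higher with OHT, where 6.51% of all probe sets were, and 1 was more than 2-fold lower, where 8.28% were. In knockdown cells 7 probe sets of 4 genes were past 2-fold higher (5.33% of all probe sets) and again 1 was lower (6.68%). The median log2 difference of the members was 0.57 in scrambled and 0.61 in knockdown cells. Centring each array on its median shifted 11 of the 19 values in scrambled cells by more than 1 SD of the more variable group. The list was made with these responses in view, so the counts support nothing beyond the values.

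BMP4, the ligand, gave signals of 2159.9, 2061, 2055 and 2123 in scrambled cells without OHT and 435, 437, 426 and 392 with it. The groups were far apart, with a log2 difference of -2.27 ± 0.06 (4.83-fold). The hairpin arrays gave 1372 (shFOXO33) and 1464 (shFOXO707) without OHT and 342, 317, 312.5 and 318 with it, a difference of -2.08 ± 0.07. BMP4 was the 1 member past 2-fold lower.

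BMPR2, the type II receptor, had 2 probe sets, both lower with OHT. Probe set 209920_at gave 734, 746, 668.5 and 697 in scrambled cells without OHT and 392, 395, 355 and 379.8 with it, a difference of -0.88 ± 0.08 with no overlap. Probe set 210214_s_at gave -0.95 ± 0.15 and rested in part on 1 array: signals without OHT were 623, 596, 598 and 1079, against 353.5 to 360.1 with OHT. In knockdown cells the 2 differences were -0.73 ± 0.10 and -0.77 ± 0.18.

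SMAD6, which blocks BMP receptor signalling from inside the cell, was read by 1 probe set above low signal, 207069_s_at. It gave 135, 169, 168 and 130.3 in scrambled cells without OHT and 838, 695, 870.0 and 785 with it. Every OHT array lay above every untreated one, with a difference of 2.29 ± 0.14 (4.90-fold). The hairpin arrays read 99.99 and 169 without OHT and 412 to 495 with it, a difference of 1.72 ± 0.17. The 3 other SMAD6 probe sets lay below low signal, with OHT differences of 0.00 ± 0.22 (209886_s_at), 0.46 ± 0.26 (209887_at) and 0.85 ± 0.26 (213565_s_at), so they do not show the same response. SMAD7, the inhibitor shared with transforming growth factor beta (TGF-beta) signalling, gave 684, 681, 700.4 and 843 without OHT and 1049, 827.5, 779 and 808 with it. Its ranges overlapped, and the difference was 0.24 ± 0.12.

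The 4 ID genes did not behave alike. ID4 had the largest response of the members: its probe set 209291_at gave 165, 130.2, 107 and 173 in scrambled cells without OHT and 3998, 3855, 3995 and 3910 with it. That is 4.65 ± 0.16 (25.1-fold), and 4.58 ± 0.20 in knockdown cells. The other ID4 probe sets were higher by 3.16 ± 0.18 (209292_at, from 8.18 to 30.0 up to 240.2 to 280.5) and 1.72 ± 0.14 (209293_x_at), so they share the direction and differ in size. ID3 gave 212, 197, 195 and 229 without OHT and 1865, 1881, 1874 and 1902 with it, a difference of 3.08 ± 0.07 (8.47-fold) in scrambled and 3.22 ± 0.08 in knockdown cells.

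ID2 and ID1 stayed within 2-fold. ID2 (201565_s_at) was higher, with 826, 815, 849.7 and 795 without OHT and 1285, 1188, 1155 and 1281 with it (0.57 ± 0.20). The groups did not overlap, while the second ID2 probe set, 201566_x_at, overlapped because 1 array with OHT read 167 beside 338 to 368 on the other 3 (0.46 ± 0.27). ID1 was lower, at 1225, 1413, 1389 and 1353 without OHT and 927, 857, 900.5 and 962 with it (-0.55 ± 0.12). ID1 was thus the 1 ID gene that read lower on every OHT array of scrambled cells.

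MSX1 gave 531, 515, 545 and 515 in scrambled cells without OHT and 1531, 1337, 1346 and 1473 with it, a difference of 1.40 ± 0.07 (2.65-fold). MSX2 was higher by 2.03 ± 0.11 on 210319_x_at (212, 228, 201 and 199.8 against 916, 952, 864 and 885) and by 1.59 ± 0.10 on 205555_s_at. The third MSX2 probe set, 205556_at, lay below low signal and gave -0.13 ± 0.25. In knockdown cells MSX1 differed by 0.83 ± 0.08 and MSX2 by 1.32 ± 0.14 and 1.25 ± 0.12, so MSX1 no longer passed 2-fold there.

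**Figure D2:**
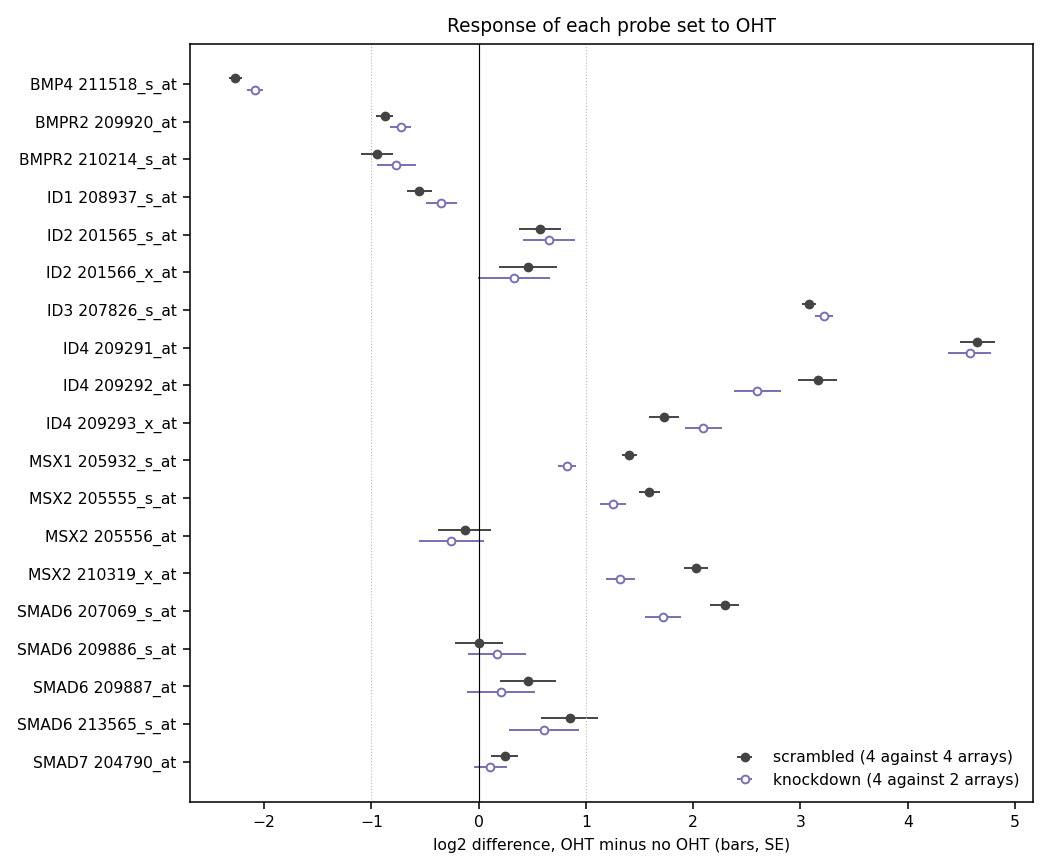
Log2 difference with its SE, OHT minus no OHT, for each of the 19 probe sets in scrambled (filled) and knockdown (open) cells; dotted lines mark 2-fold. The points run from BMP4 at -2.27 to ID4 at 4.65, and MSX1, the upper MSX2 values and SMAD6 sit further from 0 in scrambled cells than in knockdown cells.

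For the knockdown, the pooled hairpins were set against the scrambled virus. Loss of FOXO1 and FOXO3 and other effects of a hairpin or virus cannot be told apart in this comparison. With OHT, 5 genes fell and 1 rose: SMAD6 (1 probe set of 4), BMP4, ID2 (1 of 2), ID4 (1 of 3, a dim one) and MSX2 (2 of 3) fell and ID3 rose. In limma's two-sided test, adjusted over 22215 probe sets, 6 of the 19 member probe sets were called lower and 1 higher, 36.8% in all, beside 3.95% lower and 6.1% higher of all probe sets (10.1% in either direction). The median difference of the members was -0.35. This comparison uses the same scrambled OHT arrays as the response described above, so the 2 are not independent, and the MSX2 difference, 2 of the 6, was known when the list was made. On 10 of the 19 every knockdown array read lower than every scrambled one, beside 6.83% of all probe sets, and on 1 every knockdown array read higher, beside 9.91%. None of the 19 passed 2-fold, which 0.923% of all probe sets did.

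SMAD6 gave the largest called difference among the members with OHT. The 4 knockdown arrays read 412, 495, 478 and 485 against 695 to 870.0 in scrambled cells, with no overlap, and the difference was -0.75 ± 0.14 (adjusted p = 0.0034). The hairpins gave like values, -0.79 for shFOXO33 and -0.70 for shFOXO707. The 3 probe sets below low signal gave -0.12 to -0.35 and did not pass (adjusted p 0.39 to 0.85). With virus as a random block, which takes arrays of the same virus as correlated but still counts arrays, the adjusted p was 0.0556. Without OHT the 2 arrays read 99.99 and 169 and the difference, -0.17 ± 0.17, did not pass (adjusted p = 0.72).

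BMP4 fell in both states. Without OHT it read 1372 and 1464 against 2055 to 2159.9 (-0.56 ± 0.07, adjusted p = 0.001), and with OHT 312.5 to 342 against 392 to 437 (-0.37 ± 0.06, adjusted p = 0.00147). The hairpins differed from scrambled by -0.61 and -0.52 without OHT and by -0.34 and -0.40 with it. BMPR2 did not pass in either state on either probe set: 209920_at gave 0.09 ± 0.08 with OHT (adjusted p = 0.57) and -0.06 ± 0.10 without (adjusted p = 0.85).

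ID3 was the member that rose. With OHT the 4 knockdown arrays read 2423, 2507, 2424 and 2664, all above the scrambled 1865 to 1902, a difference of 0.41 ± 0.07 (adjusted p = 0.00142). Both hairpins gave it, with 0.39 and 0.43. Without OHT ID3 read 239 and 270.2 against 195 to 229, and the difference of 0.27 ± 0.08 did not pass (adjusted p = 0.10).

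MSX2 read 538.5 ± 1.62 under shFOXO33 and 678 ± 48.8 under shFOXO707 with OHT (SD, n = 2 each), against 904 ± 38.3 (SD, n = 4) in scrambled cells, on 210319_x_at. The difference was -0.57 on both this probe set and 205555_s_at, with SEs of 0.11 and 0.10. Since it was known beforehand, no p is given for it. Without OHT MSX2 gave 0.14 ± 0.14 and -0.23 ± 0.12 on these 2 probe sets and passed on neither (adjusted p = 0.73 and 0.40). MSX1 went the other way without OHT: it read 679 and 733 against 515 to 545 and rose by 0.41 ± 0.08 (adjusted p = 0.0143). This call ended without the shFOXO707 array (adjusted p = 0.0849) and with virus as a random block (0.102). With OHT, MSX1 did not pass (-0.17 ± 0.07, adjusted p = 0.15).

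ID1 and ID2 were less even. ID1 fell by 0.58 ± 0.14 without OHT (780.0 and 1017 against 1225 to 1413, adjusted p = 0.042), a call lost without any 1 of the 8 scrambled arrays or the shFOXO33 array without OHT (adjusted p 0.055 to 0.283), with virus as a random block (0.0816) and with no trend in the variance prior (0.0845). With OHT its difference of -0.38 ± 0.12 did not pass (adjusted p = 0.056, and 1.77e-05 to 0.045 in the 9 alternatives where it passed), with 572 to 824 against 857 to 962 and no overlap. ID2 (201565_s_at) fell by 0.70 ± 0.20 with OHT (adjusted p = 0.037), and this call ended without any 1 of the 8 scrambled or the 2 shFOXO707 OHT arrays (adjusted p 0.0517 to 0.0939) with quantile normalization (0.0529), with no trend in the variance prior (0.0624) and with virus as a random block (0.176). The second ID2 probe set, 201566_x_at, passed in neither state (-0.47 ± 0.27, adjusted p = 0.34 with OHT; -0.34 ± 0.33, 0.72 without). Without OHT ID2 read 453 and 485 against 795 to 849.7 and gave -0.79 ± 0.24 on 201565_s_at (adjusted p = 0.11). Both knockdown arrays thus read below every scrambled one. The spread of this pooled fit includes the difference between the hairpins with OHT, and without shFOXO707 OHT array 2 the same difference passed (0.0467).

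Of the ID4 probe sets, 209292_at, which lies below low signal, fell with OHT (139 to 176 against 240.2 to 280.5, -0.71 ± 0.18, adjusted p = 0.021), and its call was lost with pseudocount 1 (adjusted p = 0.14), with virus as a random block (0.232), with shFOXO33 alone (0.0638) and without sh-scr OHT array 1, 2 or 4 or shFOXO707 array 1 (0.0519 to 0.0623). The brighter 209291_at gave -0.34 ± 0.16 (adjusted p = 0.24) with no overlap, at 2735 to 3480.1 against 3855 to 3998, and 209293_x_at gave -0.12 ± 0.14 (0.69). SMAD7 gave -0.35 ± 0.12 with OHT (adjusted p = 0.0995) and -0.21 ± 0.15 without (0.58), passing in neither. Without OHT, 2 of the 19 member probe sets were called lower (BMP4 and ID1) and 1 higher (MSX1), beside 1.4% and 1.76% of all probe sets (3.16% in either direction).

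**Figure D3:**
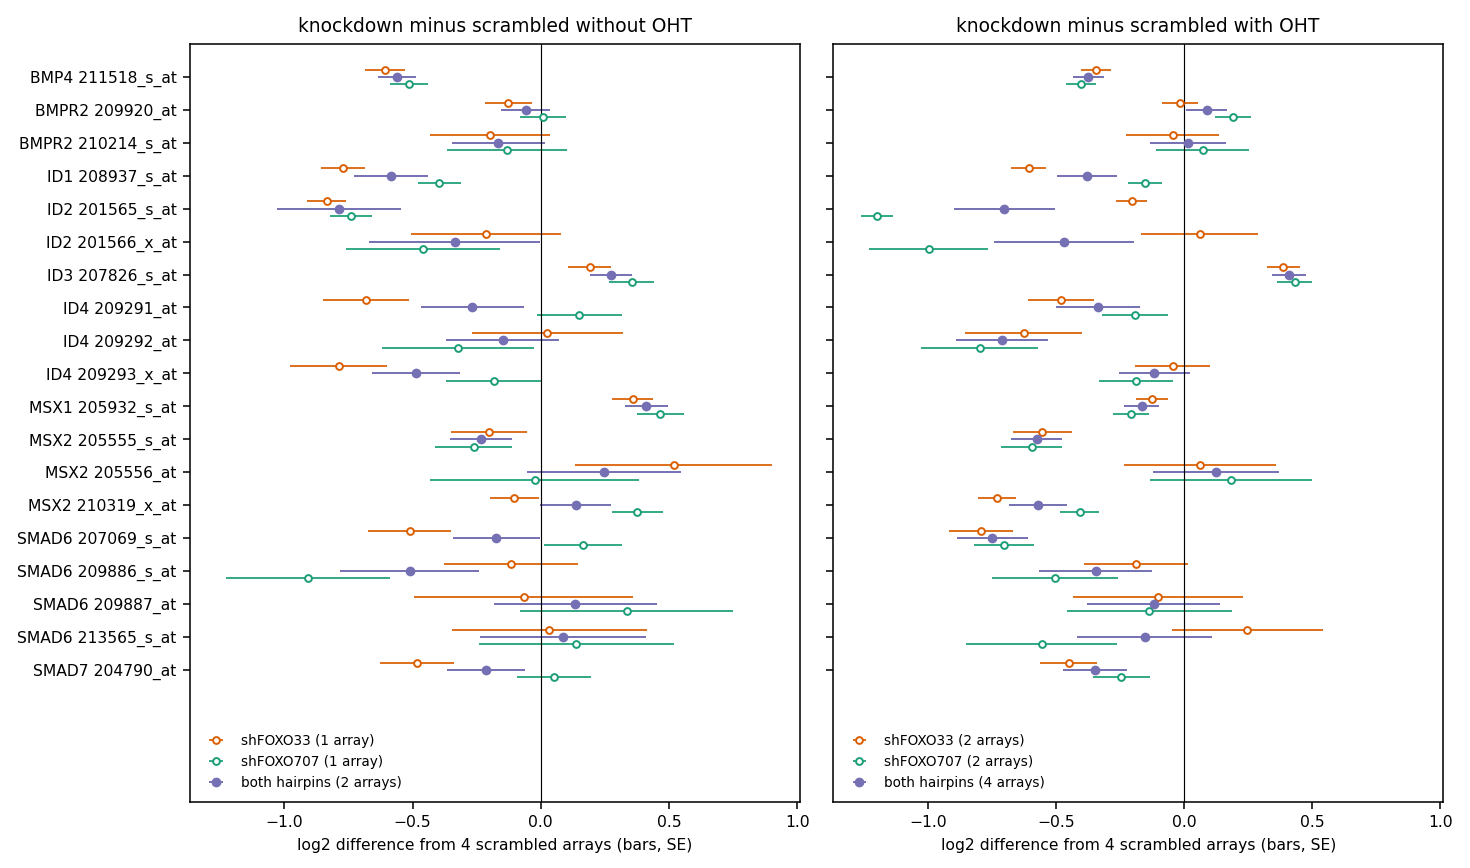
Log2 difference from scrambled cells with its SE for each probe set, without OHT (left) and with OHT (right), for each hairpin alone (open) and for both pooled (filled). With OHT both hairpins lie left of 0 for SMAD6 207069_s_at (-0.79 and -0.70) and right of 0 for ID3 (0.39 and 0.43), while ID2 201565_s_at is split between -0.20 and -1.20.

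Whether knockdown changed the response to OHT itself was tested as the interaction. No member was called (0 of 19, where 0.122% of all probe sets, 27 of 22215, were). Of the 19, 4 had an unadjusted p under 0.05, beside 7.61% of all probe sets. MSX2 is among the 4 with values in part known beforehand, so this count is no test of the members. These were MSX1 (-0.58 ± 0.11, adjusted p = 0.0597), SMAD6 on 207069_s_at (-0.57 ± 0.22, 0.512) and MSX2 on 210319_x_at (-0.70 ± 0.18) and 205555_s_at (-0.34 ± 0.16), all towards a smaller response in knockdown cells. The MSX2 values contain the known difference with OHT, so no further p is given for them. Every interaction also contains the OHT response of scrambled cells. That response was in view when the list was made, so the p-values here are no independent test. MSX1 passed with virus as a random block (adjusted p = 0.0205), with the filter on dim probe sets (0.0424) and with 1 probe set per gene (0.0383). Its interaction was -0.48 with shFOXO33 alone and -0.67 with shFOXO707 alone. A fit with 1 hairpin has a single knockdown array without OHT, which is assumed to vary like the arrays of the other groups. For the other members the interaction lay between -0.56 and 0.37, with adjusted p from 0.69 to 0.99.

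The 2 hairpins differed from each other for ID2 and ID1. With OHT, 4 of the 19 member probe sets, from 3 genes, were called between shFOXO707 and shFOXO33, 2 higher and 2 lower. That is 21.1% beside 22% of all probe sets, so the share of members was near that of the array as a whole. ID2 read 548 and 504 under shFOXO707 and 1092 and 1032 under shFOXO33, a difference of -0.99 ± 0.07 (adjusted p = 1.06e-07). The second ID2 probe set gave -1.06 ± 0.26 (adjusted p = 0.00757, and 0.0585 without shFOXO707 array 1). ID1 was higher under shFOXO707, at 824 and 811 against 572 and 614 (0.45 ± 0.08, adjusted p = 0.000416). MSX2 gave 0.32 ± 0.09 on 210319_x_at, the other of the 4, and -0.04 ± 0.14 on 205555_s_at, with no p since its values with OHT were in part known.

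For ID2 the hairpins gave like values without OHT and unlike ones with it. Against scrambled cells ID2 gave -0.83 under shFOXO33 (adjusted p = 7.88e-06) and -0.74 under shFOXO707 (4.22e-05) without OHT. Each of these compares 1 knockdown array, whose spread is taken from the other groups. With both hairpins pooled ID2 did not pass there, in a fit whose spread includes the hairpin difference with OHT. With OHT it fell by 0.20 under shFOXO33 (adjusted p = 0.0204) and by 1.20 under shFOXO707 (2.69e-08), with 2 arrays each. The OHT difference of ID2 was 1.20 ± 0.08 in shFOXO33 cells and 0.11 ± 0.09 in shFOXO707 cells, beside 0.57 in scrambled cells. Set against the scrambled response, the interaction was 0.63 for shFOXO33 and -0.46 for shFOXO707, beside 0.09 (adjusted p = 0.99) with both pooled. Each of the single-hairpin values again rests on 1 array without OHT. All of them contain the scrambled response to OHT, which was in view when the list was made. Whether the 2 hairpins' own responses differ was not tested.

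Other measures also differed between the hairpins. The summed signal of the 7 osteoblast markers was 8537 to 8743 under shFOXO33 with OHT. It was 15328 to 16462 under shFOXO707 and 16327 to 17155 in scrambled cells, mostly through SPARC, a bone matrix glycoprotein (804, 8034 and 8802). In the same order ALPL went the other way (233, 86.2 and 110) and COL1A1 read 7152, 7253 and 7428. COL1A2 read 156, 108 and 188 and SPP1 236, 370 and 211, and RUNX2 and IBSP were dim. The 6 epithelial markers summed to 3472 to 3563 under shFOXO707 and 5879 to 6224 under shFOXO33, against 5157 to 5439 in scrambled cells. In that order KRT18 read 2138, 4495 and 3507 and KRT8 914, 1172 and 1473. EPCAM was highest under shFOXO707 (402, 337 and 269), and the other markers were dim. The ratio of the 3' to the 5' ACTB probe set, which rises with RNA breakdown, was 1.95 to 2.04 on the shFOXO707 OHT arrays and 1.49 to 1.74 on the other 12. The GAPDH ratio did not set them apart, at 1.04 to 1.11 on the shFOXO707 OHT arrays and 0.98 to 1.10 on the other 12. Their part in the differences of ID2 and ID1 was not tested.

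The rest of the pathway was read from lists of related genes, each gene by its brightest probe set. These were drawn up with earlier results of these arrays known, and counts per gene stand beside 7.39% past 2-fold higher and 9.47% lower with OHT over 11963 genes. Of 15 other genes with a BMP or GDF name on the array (not all of them ligands), 7 of them above low signal, 6 were past 2-fold higher with OHT in scrambled cells and 2 lower. BMP2, the closest relative of BMP4, was higher by 3.08 ± 0.08 (268 to 2388), so the 2 ligand genes went in opposite directions. GDF7 was higher by 2.62 ± 0.13, and GDF10 (2.24) and BMP3 (2.22) were dim.

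Of 8 receptor and coreceptor genes, 3 were higher and 1 lower past 2-fold. The type I receptors ACVR1B (1.92 ± 0.07) and ACVR1 (1.17 ± 0.08) and the coreceptor NEO1 (1.47 ± 0.10) were higher, while the dim BMPR1B was lower (-1.27). Of 14 SMAD and cofactor genes 3 were higher, namely SKI, a SMAD corepressor (1.71 ± 0.28, on 1 of 2 probe sets), SMAD3 (1.49 ± 0.10, and 0.56 to 0.84 on its 3 other probe sets) and YY1 (1.08 ± 0.08), and the corepressor TGIF1 was lower (-2.79 ± 0.15). Of 19 antagonists and modulators 5 were higher and 2 lower: the decoy receptor BAMBI (2.60 ± 0.10), FST, which traps activin (1.87 ± 0.06), and CHRD, which traps BMPs (1.67 ± 0.09), were higher and PMEPA1 was lower (-2.22 ± 0.19).

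Among 15 further genes known as BMP targets in some tissue, 1 was past 2-fold higher and 2 lower. HEY1, a Notch and BMP target, gave 157 ± 16.6 without OHT and 10472 ± 276 with it (SD, n = 4 each), a difference of 5.93 ± 0.07. SNAI2 was lower by -1.87 ± 0.12 and GATA3 by -1.67 ± 0.16. Of 12 genes of the TGF-beta branch none was past 2-fold higher and 3 were lower, TGFBR2 (-2.91 ± 0.36), INHBA (-2.37 ± 0.18) and TGFB2 (-1.35 ± 0.12). Of 19 genes for helix-loop-helix and other partners of ID proteins 2 were higher, TAL1 (3.70 ± 0.35) and the dim MYOD1 (2.28), and 2 were lower, BHLHE40 (-2.65 ± 0.16) and TCF4 (-1.41 ± 0.17). Centring each array on its median changed these counts with OHT in scrambled cells by at most 1 gene a list.

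**Figure D4:**
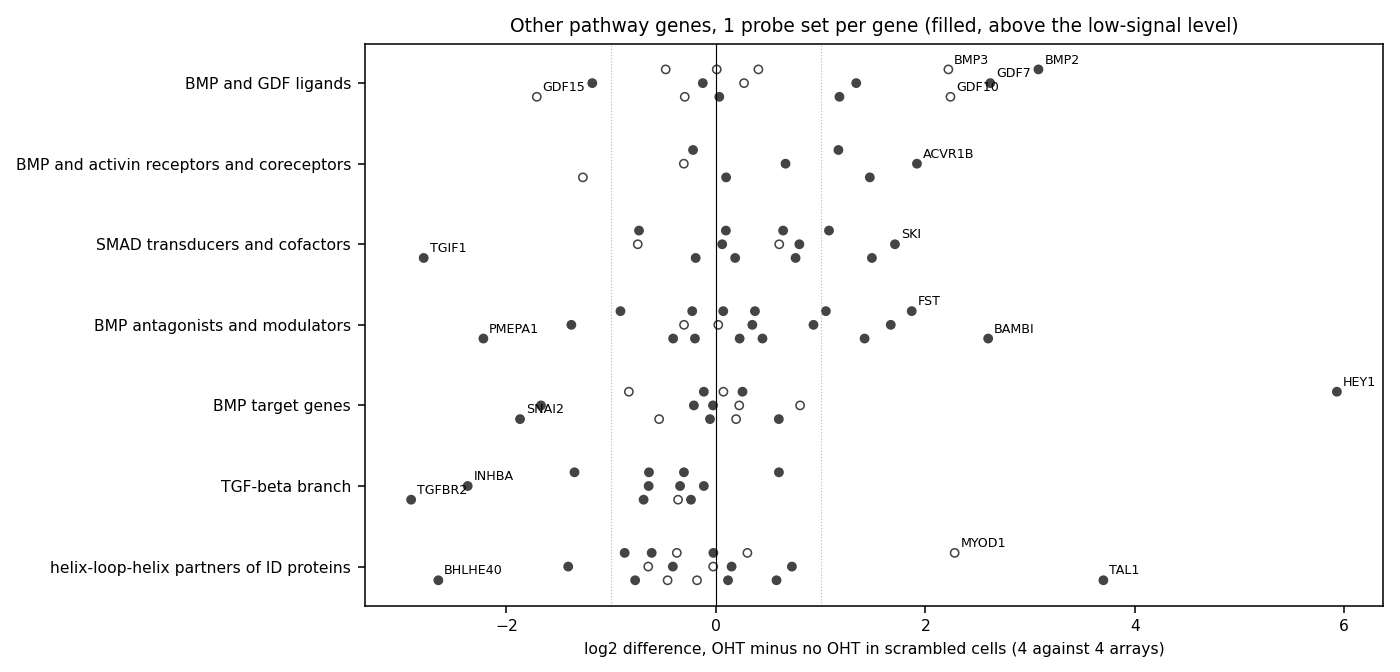
Log2 difference, OHT minus no OHT in scrambled cells, of 1 probe set per gene in each list, filled where above low signal; dotted lines mark 2-fold and names are given to the outer genes. The TGF-beta branch has no gene right of the 2-fold line, while BMP2 at 3.08, BAMBI at 2.60 and HEY1 at 5.93 lie far to the right.

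With knockdown and OHT, where 7.6% of genes were called higher and 4.26% lower, 2 ligand genes fell and none rose: BMP2 by 0.54 ± 0.08 (adjusted p = 0.00113) and BMP7 by 0.46 ± 0.09 (0.00614; its 3 other probe sets gave -0.18 to -0.36 and did not pass). Of the antagonists 4 fell and 1 rose, with FSTL1 at -0.45 ± 0.05 (0.000132), FST at -0.33 ± 0.06 (0.00196), CHRD at -0.46 ± 0.09 (0.00554) and CTDSPL, a phosphatase, at 0.49 ± 0.10 (0.00444). A single receptor gene rose, ACVR1B (0.28 ± 0.07, 0.017, on 1 of its probe sets), and 1 SMAD cofactor fell, ZNF423 (-0.39 ± 0.11, 0.041). Of the targets CDKN1A, the cell-cycle inhibitor p21, fell by 0.29 ± 0.06 (0.00488) and GATA3 rose by 0.53 ± 0.16 (0.045, not passing on its 2 dim probe sets and lost when arrays were centred on their medians or quantile normalized). In the TGF-beta branch TGFB2 (-0.68 ± 0.12, 0.00309, not passing on 3 other probe sets), LTBP2 (-0.30 ± 0.05, 0.0017) and INHBA (-0.60 ± 0.18, 0.0433) fell and TGFB1 rose (0.47 ± 0.09, 0.00371); the dim second probe sets of INHBA and TGFB1 did not pass (0.446 and 0.509). None of the 19 ID partner genes passed.

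Without OHT, where 2.21% of genes were called higher and 1.57% lower, 3 antagonists fell, NBL1 by 0.83 ± 0.20 (adjusted p = 0.0343), FST by 0.52 ± 0.07 (0.00101, and 0.209 on its second probe set) and FSTL1 by 0.48 ± 0.07 (0.00131). The ligand gene GDF15 fell by 1.44 ± 0.18 (0.000597) on 1 probe set below low signal and not on another (0.60 ± 0.20, 0.143). CDKN1A fell by 0.66 ± 0.07 (0.000132) and LTBP2 by 0.33 ± 0.06 (0.0104), while HEY1 rose by 0.65 ± 0.08 (0.000756) and ACVR1B by 0.34 ± 0.08 (0.0381, again on 1 of its probe sets). The ACVR1B call was lost when arrays were centred on their medians, and with that centring or quantile normalization 2 SMAD or cofactor genes passed as lower where none did otherwise. HEY1 was the 1 listed gene with a called interaction (-0.62 ± 0.11, adjusted p = 0.0489; 0.0516 on its second probe set), beside 0.159% of genes. Between the hairpins with OHT, where 25.6% of genes were called, 3 SMAD or cofactor genes were higher and 3 lower under shFOXO707, among them SMAD1 (0.56 ± 0.06, and -0.82 ± 0.37 on its dim second probe set) and SKI (-1.18 ± 0.13, and 0.04 on its dim second probe set). SMURF2, a ubiquitin ligase that removes SMADs and their receptors, was lower by -1.58 ± 0.13 (adjusted p = 4.4e-07) and TGFBR2 by -1.69 ± 0.07 (3.71e-10, and 0.13 on its dim second probe set). TCF12, a direct partner of ID proteins, was lower by -0.96 ± 0.05 (7.11e-09), and its dim second probe set gave 0.09 ± 0.42 (0.92).

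Genes with the pattern most like that of a member were sought over the 6 group means, each relative to scrambled cells without OHT, by the root mean square of the log2 differences among 11438 probe sets. Nearest to ID4 were FA2H (0.22), TM6SF1 (0.34), CITED1 (0.45), KLHL21 (0.48) and ABCG2 (0.52). Nearest to ID1 were ADAM10 (0.07), SRP72 (0.09), MAGED2 (0.10), XRCC5 (0.11) and POLD3 (0.11). Nearest to MSX2 were SLK (0.15), TLE3, a corepressor (0.16), PDLIM5 (0.16), UBE2J1 (0.16) and LRP4 (0.17). The 6 means share their arrays, so this is a description of likeness.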

How the data were processed

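Total RNA of 14 samples was measured on a 3' expression array with 22277 probe sets. The authors deposited 1 intensity value per probe set and array. The submitters' processing notes name MAS5, and the scaling to a trimmed mean of 500 (2% trimmed at each end) was found from the values. The chip's own controls (62 probe sets) were left out. Symbols came from the platform annotation, 19052 updated through Entrez identifiers; 19064 probe sets name 1 gene, 1043 several and 2108 none. No 2 arrays held identical values.

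Values were taken as log2(signal + 16), and a fold is on that scale and understates dim genes. limma 3.58.1 in R 4.3.3 (lmFit, eBayes with trend) was fitted to all 22215 probe sets in 4 groups, scrambled or pooled hairpins without or with OHT, and in 6 groups for the hairpin comparison. p-values are two-sided with Benjamini-Hochberg adjustment, called under 0.05. The low-signal level is the 40th percentile of mean log2 over probe sets naming 1 gene. The fit was tested on simulated data with independent noise on each array. Those data held no spread between hairpins and no correlation within a virus, so they say nothing about either. The members and lists were chosen with earlier results of these data known. Each list names up to 4 genes per comparison with the smallest adjusted p (for OHT the largest past 2-fold), by the probe set with the highest mean, and likeness names 5 genes. The number of arrays limits the precision.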

Additional observations from a re-analysis of the deposited data

Results flagged for a closer look

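In 5 cases a single array lay apart from the rest of its group of 4 by Dixon's test; chance flags about 1 in 20 groups, and 57 combinations of group and probe set were looked at. In sh-scr with OHT, replicate 3 read 167 for ID2 (201566_x_at) beside 337.9 to 367.6 on the other arrays, while 201565_s_at on that array lay near the others at 1155. In the same group replicate 4 read 63 for SMAD6 (209886_s_at, below low signal) beside 78.1 to 80.9. In sh-scr without OHT, replicate 4 read 1079 for BMPR2 (210214_s_at) beside 596.4 to 623.0, and 843 for SMAD7 beside 680.8 to 700.4. The second BMPR2 probe set, 209920_at, read 697 on that array, inside the range of the others. Among the 4 knockdown arrays with OHT, shFOXO707 replicate 1 read 1151 for MSX1 beside 1288.2 to 1312.4.

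Between the hairpins with OHT, shFOXO707 minus shFOXO33, 3 values differed in limma's test of that difference: ID2 by -0.99 (adjusted p = 1.06e-07) and on its second probe set by -1.06 (0.00757), and ID1 by 0.45 (0.000416). MSX2, given with no p because its values with OHT were in part known, gave 0.32.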

How the results depend on the processing

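Members are counted as probe sets in this section. Over the alternatives, 2615 values of single probe sets counted as unchanged. In the tested comparisons this means the same direction and side of the threshold. In the OHT comparisons it means a shift of at most 1 SD of the more variable group, so a value near 2-fold could cross it. Another 42 gained a call, 41 lost one and 103 moved. Of those that moved, 58 changed sign with neither value called, and the rest were OHT differences that shifted by more than that SD. The 1 value that reversed was the ID2 interaction, 0.09 with both hairpins and -0.46 with shFOXO707 alone. Leaving out 1 array gave 9 to 10 scrambled-cell members past 2-fold with OHT, 8 to 8 for the hairpins, and 5 to 9 called for knockdown with OHT, 2 to 4 without, 0 to 0 for the interaction and 3 to 5 between hairpins. Without probe sets ending in _x_at or _s_at, 6 members were left, with 2 past 2-fold in each OHT comparison. Of these 6, 1 was called for knockdown with OHT, 0 without and 0 between hairpins. Over the 11813 probe sets of that fit, 596 were called higher and 324 lower for knockdown with OHT. With 1 probe set per gene, 5 of 10 were past 2-fold in knockdown cells. There 1 interaction was called, beside 6 higher and 21 lower among all 7720 probe sets of that fit. The filter on dim probe sets also called 1, beside 13 and 25 among 11438. The fit of 6 groups called 11 for knockdown with OHT, 6 without and 2 interactions. shFOXO33 alone called 7 without OHT and 3 interactions, and shFOXO707 alone 6 and 4. Virus as a random block (consensus correlation 0.337) called 3 with OHT (ID3, BMP4 and MSX2 210319_x_at), 1 without and 2 interactions (MSX1 and MSX2 210319_x_at). Over all 22215 probe sets it called 406 higher and 247 lower with OHT, 121 and 112 without, and 60 and 58 interactions. The MSX2 difference with OHT was known beforehand, so its calls are a description only, and MSX2 205555_s_at lost its call with OHT. The causes of these moves were not tested.

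Replicate numbers did not pair the samples: same-numbered scrambled arrays had deviations correlated between -0.000 and 0.017. The replicate block over the 12 numbered arrays called 5 member probe sets for knockdown with OHT (1 higher, 4 lower), beside 650 higher and 410 lower of all probe sets. ID2, at adjusted p = 0.177, and ID4 209292_at, at 0.0626, did not pass. The block called 4 between hairpins, beside 2430 higher and 2426 lower of all probe sets, and left 9 past 2-fold in scrambled cells. It could not be fitted for the other comparisons, whose hairpin arrays without OHT carry no number.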
